A study of Mus with 4 samples.

Results

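The HIF pathway and hypoxia-response genes described here are 10 genes chosen by their symbols: every probe set whose only symbol in the platform annotation was Hif1a, Epas1, Arnt, Egln1, Egln2, Egln3, Vegfa, Adm, Bhlhe40 or Ankrd37. All 10 were found among the 18193 genes with 1 symbol, and they were measured by 22 probe sets. A probe set is a group of short probes on the array that together give 1 value for a transcript. Expression was profiled on 4 arrays in PPS-ICBR, a C57Bl6 mouse prostate cancer cell line grown in serum-containing DMEM. On 2 arrays, DMSO 1 and DMSO 2, the cells had been kept overnight with the solvent DMSO, at 5 µL in 10 mL of medium. On the other 2, Vorinostat 1 and Vorinostat 2, they had been kept overnight with 5 µM vorinostat, an inhibitor of histone deacetylases, in the same solvent. No label gives the oxygen level of a culture. Nor does any tell whether replicates were grown separately, so the tests see only the scatter among these arrays, which may be technical.

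Hypoxia-inducible factor, HIF, is a transcription factor made of an oxygen-labile alpha subunit and a stable beta subunit. The alpha subunit is encoded mainly by Hif1a or Epas1, and the beta subunit mainly by Arnt. In oxygen, the prolyl hydroxylases encoded by Egln1, Egln2 and Egln3 mark the alpha subunit for destruction through the von Hippel-Lindau protein. When oxygen is low the alpha subunit persists, enters the nucleus with its partner and switches on genes of blood vessel growth, glycolysis and pH control. The control by oxygen acts on the protein, so a transcript level does not measure the amount of HIF protein. Vegfa, Adm, Bhlhe40, Ankrd37, Egln1 and Egln3 are all known as genes that HIF can induce.

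With vorinostat, the 10 genes did not move in 1 direction. Epas1, Egln3 and Ankrd37 rose, Egln1, Vegfa and Adm fell, and Hif1a, Arnt, Egln2 and Bhlhe40 did not pass the threshold, an adjusted p of 0.05 by limma at the brightest probe set of each gene. Epas1 was 2.26-fold higher and Adm 2.08-fold lower. At the brightest probe set, only these 2 genes were past the threshold with a change of at least 2-fold, as were 11.9% of all genes. The known HIF-inducible genes thus included 2 that rose, 3 that fell and Bhlhe40, which did not pass. Past the threshold were 6 of the 10 genes, where 39.9% of all genes and 56.8% of the genes above the median probe set level were past it. The 3 rises stand against 20.9% of all genes and the 3 falls against 18.9%, and the 1 rise and 1 fall of at least 2-fold against 5.74% and 6.17%. The arrays of the 2 groups did not overlap in 8 of the 10 genes, against 68.9% of all genes. The median change was 0.00 on the log2 scale, and it was 0.03 over all genes.

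**Figure D1:**
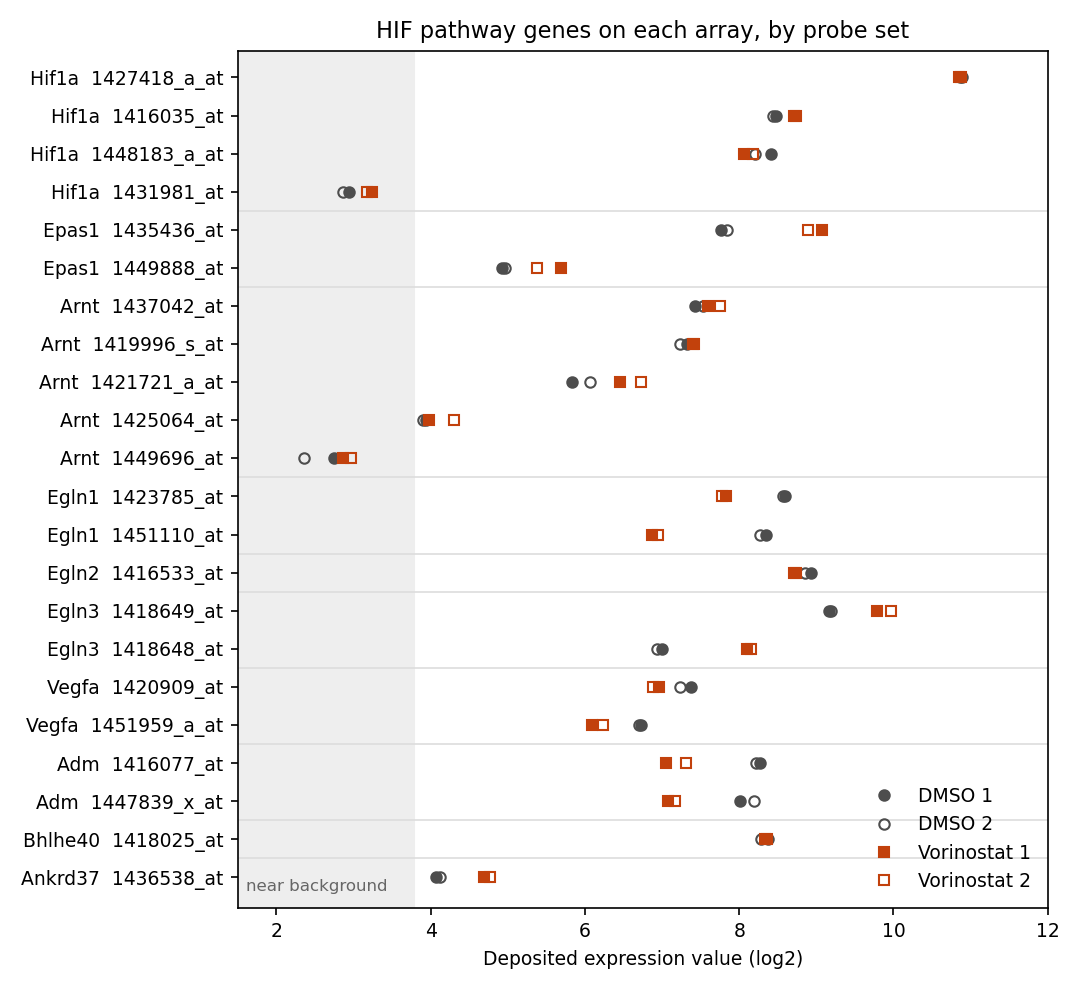
Deposited log2 value (x axis) of each of the 22 probe sets of the 10 genes (rows, brightest probe set of a gene first) on each array; circles are DMSO arrays, squares vorinostat arrays, filled symbols replicate 1 and open symbols replicate 2. The grey band marks values near background, where 1 probe set of Hif1a and 1 of Arnt lie; both DMSO circles lie left of both vorinostat squares for Epas1, Egln3 and Ankrd37 and right of them for Egln1, Vegfa and Adm.

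Values of the arrays are comparable only as far as the authors' normalization makes them so. The array medians lay between 4.19 and 4.28. A gap of over 2-fold was seen for 16 probe sets within the DMSO pair, for 9 within the vorinostat pair and for 3734 to 4378 across the groups. The 22 probe sets of the 10 genes gave 0, 0 and 3 to 5 of these. The difference between the 3′ and 5′ control probe sets of Actb, a sign of RNA integrity, ranged from 0.02 to 0.04 in DMSO and from -0.00 to 0.02 with vorinostat. Of 10 measured markers of prostate epithelium, 9 lay above background, with Krt8 and Krt18 highest, and the prostate secretory gene Pbsn near background on every array. Krt8 fell by 1.05 and Foxa1 by 0.96, and Hoxb13 rose by 0.54. The fibroblast markers Dcn and Pdgfra rose by 1.26 and 1.54 and Col3a1 fell by 0.89, with 5 of 8 such markers above background. Their summed level was 13.23 in both DMSO arrays and 12.94 to 13.17 with vorinostat. The brightest was Col1a2, at 12.67 and 12.68 in DMSO and 12.40 and 12.53 with vorinostat, which did not pass. The epithelial markers summed to 13.13 and 13.18 in DMSO and to 12.54 and 12.71 with vorinostat. The part of all these markers in the results below was not tested. Near background means within 1 log2 unit, on every array of a group, of the highest of the TrpnX control probe sets, which detect a bacterial transcript, a limit between 3.54 and 3.78 depending on the array.

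Of the alpha subunits, Epas1 rose and Hif1a did not pass at its brightest probe set. Hif1a, which encodes the subunit found in most tissues, read 10.86 and 10.88 in DMSO 1 and DMSO 2 and 10.84 and 10.88 in Vorinostat 1 and Vorinostat 2 at its brightest probe set (1427418_a_at). These arrays overlapped, and the change of -0.01 (SE 0.08, adjusted p = 0.918) had a 95% interval from -0.21 to 0.18. Other probe sets of Hif1a gave 0.26 (1416035_at, SE 0.08, adjusted p = 0.0532) and -0.19 (1448183_a_at, SE 0.11, adjusted p = 0.262), neither past the threshold. The probe set 1416035_at read 8.48 and 8.44 in DMSO and 8.71 and 8.74 with vorinostat, so its groups did not overlap. Within each array, its difference from the brightest probe set was -2.39 and -2.45 in DMSO and -2.14 on both vorinostat arrays, so the probe sets of this gene shifted unequally. It passed in 5 of 7 alternatives that kept all arrays, with a range from 0.20 to 0.62, and in none of the 4 that left out an array. The fourth probe set (1431981_at) was past the threshold, with a change of 0.30 (SE 0.08, adjusted p = 0.0406), but lay near background on all 4 arrays, and no fold is given for it. It missed the threshold with any single array left out (adjusted p from 0.1 to 0.179) and passed in 2 of 6 other alternatives. With the arrays scaled on reference genes, the brightest probe set of Hif1a turned to 0.34 (adjusted p = 0.0165). This scaling adds 1 constant to all changes, and with it the median over all genes went from 0.03 to 0.38.

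Epas1 encodes the other main alpha subunit, which is best known from endothelium, kidney and other specialised tissues. At its brightest probe set (1435436_at) it read 7.76 in DMSO 1 and 7.85 in DMSO 2, and 9.07 in Vorinostat 1 and 8.90 in Vorinostat 2. Both vorinostat arrays lay more than 1 log2 unit above both DMSO arrays. The rise was 1.18 (SE 0.10, 95% interval from 0.93 to 1.42, adjusted p = 0.000768), and only 8.67% of all genes had a larger change in either direction. A second probe set (1449888_at) rose by 0.59 (SE 0.12, adjusted p = 0.0181), from 4.92 and 4.96 to 5.69 and 5.38. This dimmer probe set missed the threshold when DMSO 1 (adjusted p = 0.14), DMSO 2 (0.118) or Vorinostat 1 (0.0727) was left out, while the brightest probe set passed without any of the 4 arrays, with changes from 1.09 to 1.26. The endothelial markers Pecam1, Vwf, Emcn, Cldn5 and Tie1 lay near background on every array. Of the 8 endothelial markers, 3 lay above background, namely Cdh5, Esam and Eng. Eng fell by 0.47 (adjusted p = 0.00763), and Cdh5 and Esam did not pass. The summed level of the 8 was 7.14 to 7.15 in DMSO and 6.91 to 6.95 with vorinostat. Their part in the change of Epas1 was not tested. The difference of Epas1 from Hif1a within an array was -3.10 and -3.04 in DMSO and -1.78 and -1.98 with vorinostat. Its level has no meaning, since probe sets of different genes are not on 1 scale. Its shift of 1.19 holds for the brightest probe set of each gene and was not tested. The changes of the probe sets of 1 gene also spread, over 0.59 for Epas1 and 0.49 for Hif1a.

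Arnt, the shared beta subunit, had 5 probe sets. The brightest (1437042_at) read 7.43 and 7.53 in DMSO and 7.597 and 7.753 with vorinostat, groups that did not overlap but lay close together. Its change was 0.20 (SE 0.09, adjusted p = 0.19), with a 95% interval from -0.04 to 0.44. Of the other 4, only 1421721_a_at rose, from 5.83 and 6.06 to 6.45 and 6.72, by 0.64 (SE 0.13, adjusted p = 0.0173). That call was lost when any of the 4 arrays was left out, with changes from 0.51 to 0.77. The other 3 probe sets had changes from 0.13 to 0.36 and did not pass, and 1 of them (1449696_at) lay near background. All 5 changes were above 0, and the mean of the 5 probe sets passed, with a change of 0.31 (adjusted p = 0.0304), so the result for Arnt depends on how its probe sets are combined.

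Of the prolyl hydroxylases, Egln1 fell, Egln3 rose and Egln2 did not pass. Egln1 encodes the hydroxylase that sets HIF alpha levels in most cells at normal oxygen. Its brightest probe set (1423785_at) read 8.59 and 8.56 in DMSO and 7.82 and 7.78 with vorinostat. This was a fall of 1.71-fold (log2 change -0.77, SE 0.08, adjusted p = 0.00143). Its other probe set (1451110_at) read 8.34 and 8.27 in DMSO and 6.87 and 6.95 with vorinostat, a fall of 2.63-fold (log2 change -1.40, SE 0.08, adjusted p = 0.00034). Both probe sets passed with any single array left out. The platform annotation traces both to the same source sequence, yet within an array the second lay 0.25 and 0.29 below the first in DMSO and 0.95 and 0.84 below it with vorinostat. The size of the fall of Egln1 therefore differed between its probe sets by 0.62, a spread larger than that of 77.4% of the 9010 genes with several probe sets.

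Egln3, a hydroxylase that is itself strongly induced by HIF in many cells, rose. Its brightest probe set (1418649_at) read 9.16 and 9.19 in DMSO and 9.79 and 9.97 with vorinostat, which did not overlap. The rise was 0.70 (SE 0.09, adjusted p = 0.00388), or 1.62-fold. This probe set missed the threshold when DMSO 1 (0.69, adjusted p = 0.0561) or DMSO 2 (0.71, adjusted p = 0.0505) was left out. The second probe set (1418648_at) read 7.001 and 6.937 in DMSO and 8.10 and 8.15 with vorinostat, a rise of 2.23-fold (log2 change 1.16, SE 0.08, adjusted p = 0.000485), and passed with any single array left out. Egln2, the hydroxylase that is not known as a HIF target, read 8.94 and 8.86 in DMSO and 8.71 and 8.74 with vorinostat (1416533_at). Its groups did not overlap, but the change of -0.17 (SE 0.08, 95% interval from -0.37 to 0.03) did not pass (adjusted p = 0.18), and it turned to 0.18 under reference-gene scaling. The difference of Egln3 from Egln1 within an array went from 0.58 and 0.63 in DMSO to 1.96 and 2.19 with vorinostat, a shift of 1.47. A constant added to all values of an array leaves this shift unchanged.

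**Figure D2:**
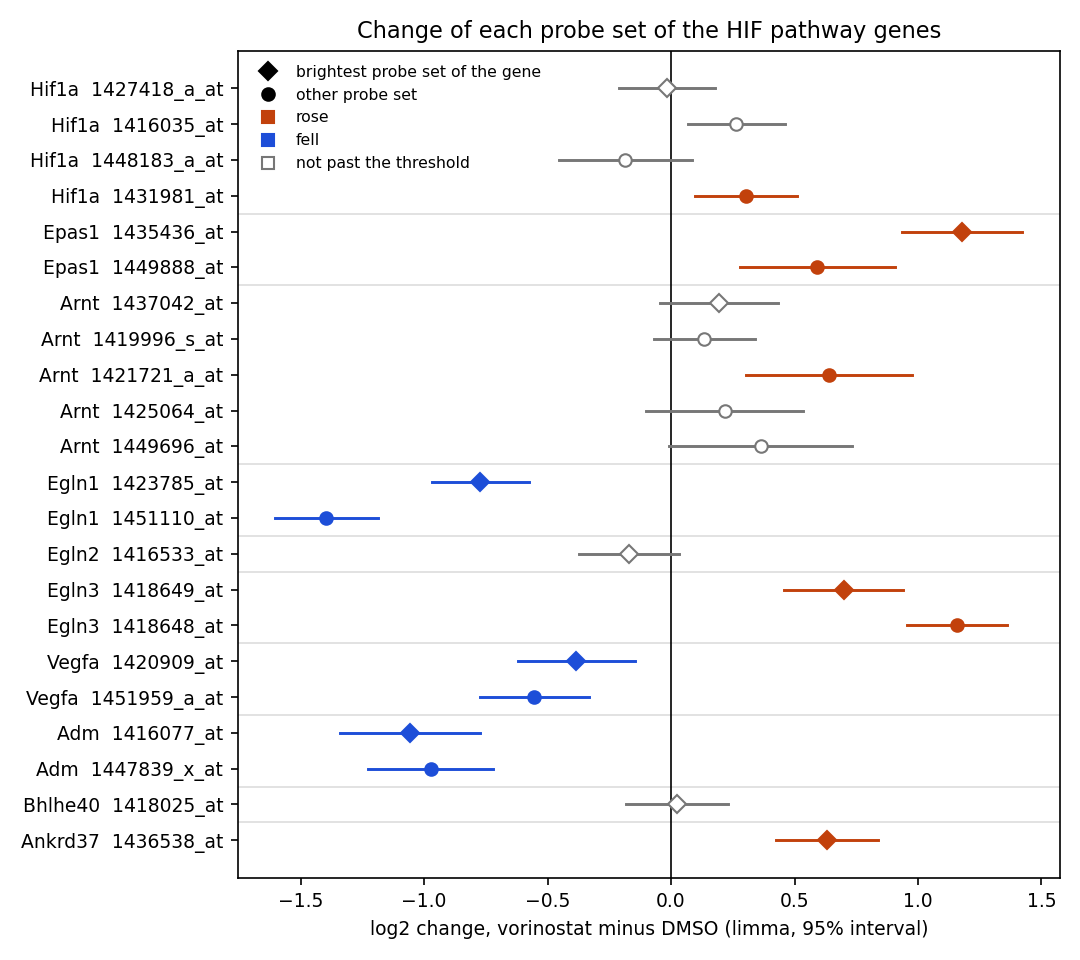
Log2 change, vorinostat minus DMSO (x axis), of each probe set of the 10 genes (rows) with its 95% interval from limma; diamonds are the brightest probe set of a gene and circles the others, filled where the adjusted p is under 0.05 (orange higher, blue lower). Both probe sets of Egln1, Vegfa and Adm lie below 0 and both of Epas1 and Egln3 above it, while those of Hif1a lie on both sides, from -0.19 to 0.30.

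The secreted products fell. Vegfa encodes the main growth factor of blood vessels. At its brightest probe set (1420909_at) it read 7.38 and 7.23 in DMSO and 6.96 and 6.88 with vorinostat. The groups did not overlap, and the fall was 1.30-fold (log2 change -0.38, SE 0.09, 95% interval from -0.62 to -0.15, adjusted p = 0.0296). At the second probe set (1451959_a_at) it read 6.73 and 6.70 in DMSO and 6.09 and 6.23 with vorinostat, a fall of 1.47-fold (log2 change -0.55, SE 0.09, adjusted p = 0.00654). The call of the brightest probe set was lost without any 1 of the 4 arrays (changes from -0.46 to -0.31, adjusted p from 0.0652 to 0.156), and that of the second was lost in 3 of these 4 omissions. Under reference-gene scaling the changes became -0.03 and -0.20, and neither passed. Adm encodes adrenomedullin, a peptide that widens blood vessels and supports their growth. Its brightest probe set (1416077_at) read 8.27 and 8.21 in DMSO and 7.06 and 7.32 with vorinostat, a fall of 2.08-fold (log2 change -1.06, SE 0.11, adjusted p = 0.00169). Its second probe set (1447839_x_at), of a type whose probes can match other transcripts, read 8.004 and 8.191 in DMSO and 7.08 and 7.17 with vorinostat (log2 change -0.97, SE 0.10, adjusted p = 0.00153). Every DMSO value of Adm lay above every vorinostat value at both probe sets, and both passed with any single array left out and under every scaling tried, with changes from -1.19 to -0.70 and from -1.07 to -0.62.

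Of the nuclear products, Ankrd37 rose and Bhlhe40 did not pass. Bhlhe40, a transcriptional repressor of the circadian clock and of differentiation that HIF can induce, read 8.37 and 8.28 in DMSO and 8.33 and 8.36 with vorinostat (1418025_at). The arrays overlapped, and its change of 0.02 (SE 0.08, adjusted p = 0.871) had a 95% interval from -0.18 to 0.23. It reached 0.38 (adjusted p = 0.011) under reference-gene scaling and turned to -0.04 with each array centred on its median. Ankrd37, a small ankyrin-repeat protein known as a HIF target, read 4.06 and 4.12 in DMSO and 4.69 and 4.77 with vorinostat (1436538_at). It rose by 0.63 (SE 0.08, 95% interval from 0.42 to 0.84, adjusted p = 0.00339), or 1.55-fold, and passed with any single array left out. It was the dimmest of the 10 genes and lay above the background limit on all 4 arrays. In DMSO 1 and DMSO 2 it lay below the array medians of 4.19 and 4.22. By the same limit, 5 of 10 measured immune markers also lay above background, so the limit alone does not show that a gene is expressed.

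Probe sets of 1 gene were not called in opposite directions: 0 of the 7 genes with several probe sets had such calls, as against 111 of the 9010 genes with several. With such calls this rare, their absence among 7 genes says little. The range of the log2 change over the probe sets of a gene had a median of 0.49 for the 7 genes and 0.31 for the 9010. Over all 22 probe sets 7 rose, 6 fell and 9 did not pass, against 32.2% of all 45037 probe sets past the threshold. The groups did not overlap at 20 of the 22, against 62.8% of all. The pattern over the 4 arrays most like that of Epas1, by Euclidean distance between values centred on each gene's mean, was that of Gpt2, an alanine transaminase (distance 0.03, log2 change 1.204), followed by Fbxo36, an F-box protein (0.05, 1.13), and Stx11, a syntaxin of vesicle transport (0.05, 1.18). Those most like Adm were Smpd4, a sphingomyelinase (distance 0.02, log2 change -1.06), Sfmbt1, a chromatin protein (0.03, -1.04), and Zmynd8, a reader of histone marks (0.03, -1.05). With 4 arrays in 2 groups, such likeness is set mainly by the size of the change and the gap between Vorinostat 1 and Vorinostat 2.

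The rest of the pathway was read from lists of genes sorted by role, none of which holds the 10 genes. Among other subunits and partners of the same protein family, 3 of 9 rose, 2 fell and 4 did not pass, with a median change of -0.03. Of all genes, 20.9% rose and 18.9% fell. Most genes of each list lay above background, and of the genes above the median probe set level 56.8% were past the threshold in either direction. Ahr, the receptor for dioxin-like compounds that pairs with Arnt, rose from 5.03 and 4.88 in DMSO to 8.24 and 8.21 with vorinostat, by 3.27 (SE 0.09, adjusted p = 0.00016). A dimmer probe set of Ahr also rose, but it lay near background in DMSO and its size is not given. Arntl, the clock factor also called Bmal1, rose by 1.83 (SE 0.11), against -0.06 at a dimmer probe set that did not pass. Its partner Clock fell by 0.73 (SE 0.09) at its brightest probe set, while its other 3, of which 1 lay near background, did not pass, and neither did the mean of all 4 (-0.17). Npas3 passed (adjusted p = 0.00812) but lay near background on all 4 arrays, so no fold is given. Hif3a, another HIF alpha gene, read 5.78 and 6.09 in DMSO and 6.56 and 6.31 with vorinostat. Its change of 0.50 (SE 0.15, adjusted p = 0.0529) did not pass, and neither did that of Arnt2 (-0.17), a relative of Arnt.

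Of 14 measured genes of oxygen sensing and HIF turnover, 6 rose, 3 fell and 5 did not pass (all genes: 20.9% rose, 18.9% fell), with a median of 0.13. Vhl, which encodes the von Hippel-Lindau protein, rose by 0.33, and Elob and Eloc, the elongins that join it in the ubiquitin ligase, rose by 0.53 and 0.50. Cul2 (0.18) and Rbx1 (-0.26), the scaffold and ring subunits of that ligase, did not pass, and neither did Hif1an (0.09), the asparaginyl hydroxylase that blocks coactivator binding. The brightest probe set of Rbx1 was dim, at 4.22 and 4.03 in DMSO and 3.81 and 3.92 with vorinostat. These values lay close to the background limit, so they say little about that gene. Os9, a lectin of protein quality control reported to bind HIF alpha, rose 3.03-fold (SE 0.08 on the log2 scale, adjusted p = 0.000261). Uchl1, a ubiquitin hydrolase reported to act on HIF alpha, rose at least 42.0-fold, from near background in DMSO. Siah2, a ubiquitin ligase for prolyl hydroxylases, fell by 0.91 (SE 0.08), and Senp1, a protease that removes SUMO from HIF alpha, by 1.05 (SE 0.08). With DMSO 1, DMSO 2, Vorinostat 1 or Vorinostat 2 left out, 4, 4, 3 and 4 genes of this list rose and 2 fell each time. The shares of all genes that rose were then 12.3%, 12.4%, 11.5% and 13.1%, and those that fell 11.2%, 12.8%, 12% and 12.7%.

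Among coactivators and modulators, 4 of 14 rose, 5 fell and 5 did not pass (all genes: 20.9% rose, 18.9% fell), with a median of -0.15. The acetyltransferase coactivators Crebbp and Ep300 fell by 1.05 (SE 0.14) and 0.44, and the coactivator Ncoa2 fell 2.30-fold (SE 0.14 on the log2 scale). The other 3 probe sets of Crebbp fell too, by 0.65 to 1.54, while of the 3 of Ncoa2 1 fell (by 1.12), 1 did not pass (-0.11) and 1 lay near background. Crebbp did not pass without Vorinostat 1 (-0.96, adjusted p = 0.0551), nor Ncoa2 without DMSO 1 (-1.11, adjusted p = 0.0501). Cited2, which competes with HIF alpha for these acetyltransferases, rose from 9.27 and 9.24 in DMSO to 11.44 and 11.41 with vorinostat, by 2.17 (SE 0.08, adjusted p = 0.000166), and by 2.30 at its other probe set. Cited1 passed (adjusted p = 0.0246) but lay near background in both groups. With DMSO 1, DMSO 2, Vorinostat 1 or Vorinostat 2 left out, 1, 1, 1 and 2 genes of this list rose and 1, 3, 2 and 2 fell, where 11.5% to 13.1% of all genes rose and 11.2% to 12.8% fell.

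Of 20 angiogenic ligands and receptors, 5 rose, 4 fell and 11 did not pass (all genes: 20.9% rose, 18.9% fell), with a median of 0.04. Among the relatives of Vegfa, Vegfb fell by 1.01 (SE 0.08, adjusted p = 0.000616) and Vegfd by 0.63, Vegfc rose by 0.91, and Pgf (-0.27) did not pass. Of the receptors of adrenomedullin, Calcrl, which lay near background on all 4 arrays, and Ramp2 (-0.00) did not pass, whereas Ramp3, a partner that makes Calcrl an adrenomedullin receptor, rose from 7.19 and 7.28 in DMSO to 9.82 and 9.78 with vorinostat, by 2.56 (SE 0.08, adjusted p = 0.00016). Ramp1, which makes it a receptor for calcitonin gene-related peptide, rose by 1.70 (SE 0.09), and its other probe sets lay near background in both groups. Angpt2, a vessel-destabilising ligand, fell by 1.44 (SE 0.17), and its other probe set lay near background in both groups.

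Hypoxia targets outside glycolysis had 24 of 45 measured members higher and 6 lower, with 15 not past the threshold and a median of 0.43, against 20.9% and 18.9% of all genes and a median of 0.03. Of the genes above the median probe set level, 56.8% were past the threshold in either direction. With only probe sets above that level fitted, 24 of these targets rose and 8 fell, where 33.6% of 11618 genes rose and 32.2% fell. Ndrg1, a widely used hypoxia marker, rose from 8.20 and 8.15 in DMSO to 10.50 and 10.45 with vorinostat, by 2.30 (SE 0.08, adjusted p = 0.00016), and its other 4 probe sets rose by 2.11 to 2.48. The nuclear receptor Rora rose by 1.68 (SE 0.20), and its other 8 probe sets ranged from -0.31 to 2.00, with 5 that rose, 2 of them from near background in DMSO, and 3 that did not pass. The secreted glycoprotein Stc2 fell by 1.92 (SE 0.08) and by 4.08 at another probe set, while the remaining one (-0.53) did not pass, and the growth factor-binding protein Igfbp3 fell by 1.54 (SE 0.17). The carbonic anhydrase Car9 rose by 1.17, the mitophagy receptor Bnip3 by 0.80 and the collagen hydroxylase P4ha2 by 0.76, whereas the collagen cross-linking enzyme Lox fell by 1.14 and the transferrin receptor Tfrc by 0.94. These 5 were named after their values were seen. With any 1 array left out, a group held a single array. Fewer of these targets, and fewer of all genes, then rose past the threshold. At its brightest probe set Igfbp3 changed by -1.58 without DMSO 1 and by -1.51 without DMSO 2, neither past the threshold.

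Glycolytic hypoxia targets had 7 of 20 members higher, 5 lower and 8 not past the threshold (all genes: 20.9% rose, 18.9% fell), with a median of 0.14. The phosphofructokinase Pfkp rose by 3.68 (SE 0.12) and the aldolase Aldoc from 4.78 and 5.15 in DMSO to 8.08 and 7.86 with vorinostat (SE of the change 0.15), while the glucose transporter Slc2a3 fell by 1.94 (SE 0.10) and the phosphofructokinase Pfkl by 1.70 (SE 0.08). Dimmer probe sets were at 2.88 and 0.28 for Pfkp, at -1.05 and 0.06 for Pfkl and at -1.85 for Slc2a3. The other 2 of Slc2a3 and that of Aldoc lay near background in both groups. Among other members often used to read HIF activity, the glucose transporter Slc2a1 rose by 1.05 and the enolase Eno2 by 1.68, and the lactate dehydrogenase Ldha fell by 0.98. The glycolytic kinase Pgk1 (0.02) and Pdk1 (-0.09), a brake on pyruvate oxidation, did not pass. These 5 too were named after their values were seen. Under reference-gene scaling the lists, in the order given, had 4, 8, 7, 11, 35 and 14 genes that rose and 1, 2, 2, 3, 5 and 4 that fell, where 60.6% of all genes rose and 11.6% fell.

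**Figure D3:**
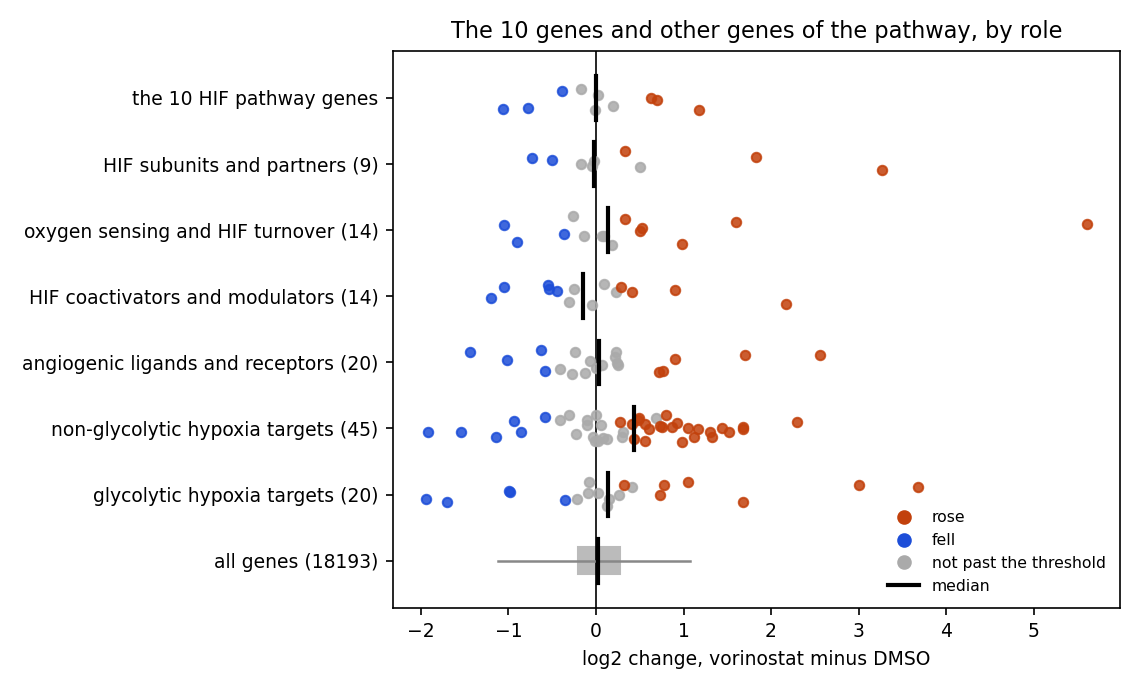
Log2 change, vorinostat minus DMSO (x axis), at the brightest probe set of the 10 genes and of the other measured genes of each list (rows, number of genes in brackets); points are genes, orange for those that rose, blue for those that fell and grey for the rest, placed with a random vertical offset, and the black bars are medians. The bottom row gives all 18193 genes as a box from -0.21 to 0.27 (quartiles) and a line from -1.12 to 1.07 (5th to 95th percentile). The rightmost point, Uchl1, is drawn at its measured difference, although it was near background in DMSO.

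**Figure D4:**
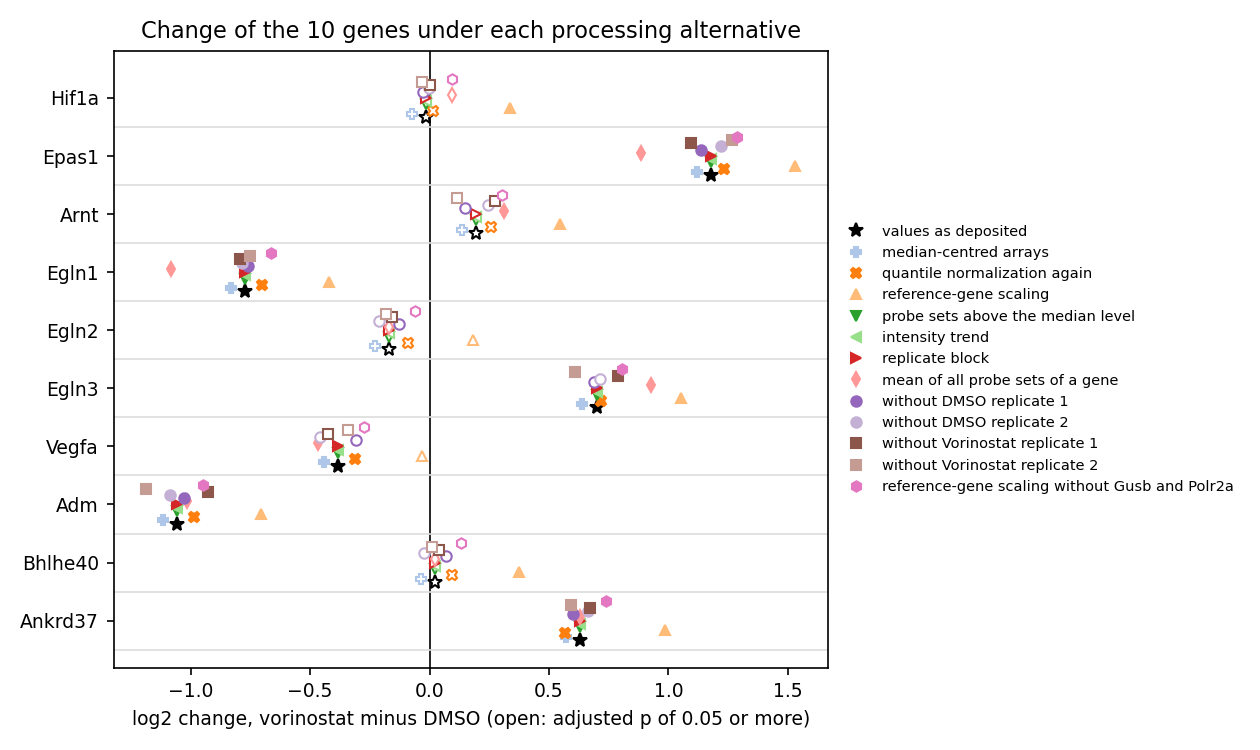
Log2 change (x axis) of the brightest probe set of each of the 10 genes (rows) with the values as deposited (black star) and under each other processing choice (coloured symbols); open symbols have an adjusted p of 0.05 or more. Epas1, Egln1, Adm and Ankrd37 are filled under every choice, Vegfa is open whenever an array is left out, and reference-gene scaling lies to the right of the deposited values for every gene.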

How the data were processed

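The authors deposited log2 values, 1 for each probe set on each array. RMA and the Transcriptome Analysis Console are named, without versions, in the submitters' processing notes. RMA includes a quantile normalization, which by design removes most of any shift common to all transcripts; the array medians as deposited were still not equal. Coordinates are left out, since no genome build is named in the sources used here.

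Of 45101 probe sets, 64 were controls and left out, and the other 45037 were fitted together with limma 3.58.1 in R 4.3.3 (lmFit and eBayes, treatment as the only term, two-sided, Benjamini-Hochberg over all of them, no filter). The same fit was tested on simulated data. The platform annotation gave 1 symbol to 34945 of these probe sets, several to 932 and none to 9160; a gene is given by its probe set with the highest mean. Changes are vorinostat minus DMSO, n = 2 arrays per group. An exact permutation test of 2 arrays against 2 cannot go below p = 0.333. The number of arrays limits the precision.

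The background limit was chosen after the values were seen. The 10 genes, the lists and the tests were chosen with earlier results of these data known. Named beside the 10 genes were, by rule, up to 4 genes of each list past the threshold (the 2 largest rises and falls) and the 3 genes most like the member with the largest rise and the largest fall; all other genes named, cell type markers included, were chosen after their values were seen. Alternatives were other scalings, a level filter, a variance trend, a replicate block, the mean of a gene's probe sets and leaving out each array; the scaling without Gusb and Polr2a was added after the values were seen. Of 11 listed immune markers 10 were measured, 5 of them above background, and 1 rose (Cd3e, by 0.43); their summed level was 6.90 to 6.98 in DMSO and 7.06 to 7.07 with vorinostat.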

Additional observations from a re-analysis of the deposited data

How the results depend on the processing

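Leaving out 1 array left 2 or 3 of the 10 genes higher and 2 lower, and 2094 to 2381 of all genes higher and 2046 to 2326 lower. With the arrays scaled on 8 reference genes, 6 of the 10 genes rose and 2 fell, and 11032 of all genes rose and 2106 fell; 84% of the called genes then rose, against 52.5% as deposited. Without Gusb and Polr2a, which changed by -1.42 and -0.75, the median of all genes was 0.14. Of the 10 genes 3 then rose and 2 fell, with Vegfa lost (-0.28, adjusted p = 0.0685). Of all genes 28% rose and 15.9% fell, and 63.8% of called genes rose. Changes that turned sign, none of them past the threshold as deposited, were those of Hif1a at its brightest probe set (0.015 with a further quantile normalization, 0.34 with the reference genes and 0.093 without Gusb and Polr2a, 0.092 for the mean of its probe sets, and 0.0014 at most when an array, Vorinostat 1, was left out, the lowest being -0.0303) and at 1448183_a_at (0.17 with the reference genes), Egln2 (0.18 with the reference genes) and Bhlhe40 (-0.0366 with median-centred arrays, and from -0.0236 to 0.0707 with an array left out). The replicate numbers were not found to pair the arrays: deviations of same-numbered arrays correlated at -0.06 over 45037 probe sets. With the number as a block, 3 of the 10 genes rose and 3 fell, as without it, and 3103 of all genes rose and 2892 fell; the second probe set of Epas1 missed the threshold (adjusted p = 0.0513). Of the 24 list genes named by rule, 0 changed direction in the alternatives that held them; the level filter left out Npas3 and Cited1.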
